A study of Mus musculus with 6 samples.

Results

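Gene expression was compared between MLL-AF9-transformed mouse bone marrow cells labelled Mll4 deleted and the same kind of cells with Mll4 intact. The comparison took the 2 libraries of each label, 4 of the 9 libraries of the study, and every gene with at least 10 counts in at least 2 of those 4, which kept 14143 of 23282 genes. The study sequenced RNA of primary and of transformed blood-forming cells to ask what Mll4 (Kmt2d) does to their transcriptome. Both groups carried floxed Mll4 alleles (Mll4f/f), came from marrow of MxCre mice on a 129/Sv x C57BL/6 background and had received an MLL-AF9 retrovirus. A retrovirus with Cre and the Tomato marker then went into the cells labelled deleted, and the empty Tomato vector into the intact cells. Sorting for GFP and Tomato followed 5 days later, and the labels give a growth time of 14 days. Cre goes with deletion here, so effects of Cre itself and of Mll4 loss cannot be told apart. MxCre is a Cre driven by the interferon-inducible Mx promoter, and no induction of it is stated for these cells. The labels do not say that the 2 libraries of a group came from separate cultures. Sex-linked genes, given below, place a male and a female library in each pair, so these came from different animals. The p-values measure the spread between these libraries only.

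Mll4 is a large histone methyltransferase that places methyl groups on lysine 4 of histone H3, mainly the single methyl mark found at enhancers, the DNA elements that raise transcription of distant genes. It is known for its role when cells switch on the genes of a new lineage, including myeloid differentiation. MLL-AF9 is a leukaemia fusion protein that keeps expression of self-renewal genes high and holds marrow progenitors in an immature, dividing, myeloid state.

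Totals were 61950773 and 31713351 counts in the libraries labelled deleted (deleted 1 and 2) and 48102130 and 49491900 in the intact libraries (intact 1 and 2). The 10 most abundant genes took 6.55% and 7.62% of counts in the deleted pair and 13.4% and 17.4% in the intact pair. Levels are given as CPM, read counts relative to the library total after TMM scaling, which adjusts each total for such differences in make-up. The libraries within a pair differed beyond sampling noise, with a median absolute log2 difference per gene of 0.28 in the deleted and 0.26 in the intact pair. Xist, made from inactive X chromosomes, was at 697 and 2.09 CPM in deleted 1 and 2 and at 1.12 and 774 CPM in intact 1 and 2, so each pair held a library of either sex, in crossed order of the file numbers. Kmt2d itself (NCBI gene 381022) was counted at 86.4 and 69.7 CPM in the deleted libraries and at 82.5 and 69.6 CPM in the intact ones. Counts over the whole gene do not check a deletion of some exons, so the groups rest on their labels.

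In the Mll4-deleted libraries 6 of 15 genes of purine and 7 of 15 of pyrimidine synthesis rose, as did 16 of 58 spliceosome genes, 12 of 43 genes of nuclear pores and transport and 9 of 22 cohesin and condensin genes. Both ferritin chains fell. Of 291 genes on the immune lists 29 fell, among them cytokines and surface receptors, 2 rose and 260 were not called. Of the 14143 genes, 1377 (9.74%) were called at an adjusted p of at most 0.10 by edgeR's quasi-likelihood test, 802 higher (5.67%) and 575 lower (4.07%) in the deleted libraries. A gene is said below to have risen or fallen only if it is among these. The 2-fold size was reached by 471 of the called genes in the higher (3.33% of all tested) and 436 in the lower direction (3.08%). All 1377 had groups that did not overlap, but so did 4282 genes in the higher (30.3%) and 3840 in the lower direction (27.2%) among all genes tested. At an adjusted p of 0.05 this edgeR fit called no gene, where 3484 had an unadjusted p under 0.05, and DESeq2 called 2126. Other edgeR fits called between 0 and 2336 genes at 0.05. Without intact 1 or without intact 2 no gene was called, nor with the sex of the library as a block. Without a deleted library 2058 or 2147 genes were called. Scaled by the total count alone, the median gene moved from 0.01 to 0.23 on the log2 scale, and 80.4% of the 2673 calls were higher, against 58.2% under TMM.

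**Figure D1:**
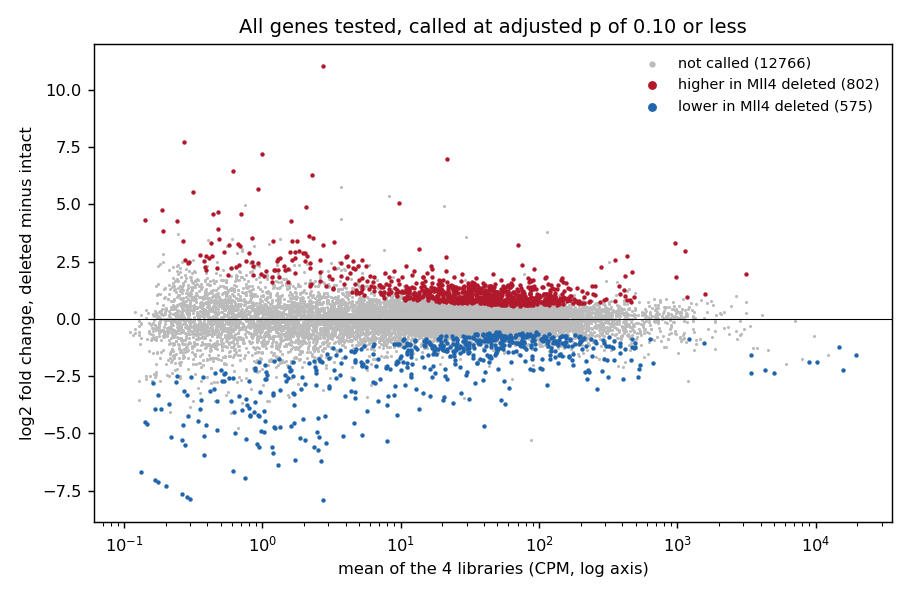
Each point is a gene, with its mean level over the 4 libraries on the horizontal axis (CPM, log scale) and its log2 fold change, deleted minus intact, on the vertical axis. The 802 genes called higher (red) lie mostly at middle levels, and the 575 called lower (blue) include the most abundant genes called.

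Among the genes that rose most, enzymes and membrane proteins stood beside a chemokine. Among called genes that averaged 10 CPM or more, and without those that earlier results of these data had named, the largest rises reported ran from 2.06 to 6.96 on the log2 scale. Cers4, a ceramide synthase, stood at 28.1 and 20.4 CPM in the deleted libraries and at 3.21 and 2.71 CPM in the intact ones. Every deleted library lay far above every intact library, with a log2 fold change of 3.03 ± 0.27 (SE, as after every log2 value here) and an adjusted p of 0.0508. Lta4h, the hydrolase that makes the chemoattractant leukotriene B4, had 718 and 807 CPM against 204 and 161 CPM, a rise of 2.06 ± 0.22 (adjusted p 0.0514). Plac8, a small cysteine-rich protein of myeloid cells, had 523 and 693 CPM against 120 and 83.2 CPM, a rise of 2.58 ± 0.29 (adjusted p 0.0514). Smo, the signal transducer of the Hedgehog pathway, had 27.6 and 27.7 CPM against 4.98 and 7.43 CPM. It rose by 2.15 ± 0.26 (adjusted p 0.0528), with nearly equal levels in the deleted pair. Epop, a protein bound to Polycomb repressive complex 2, had 19.5 and 16.7 CPM against 2.80 and 4.51 CPM, a rise of 2.31 ± 0.31 (adjusted p 0.0543). The thioesterase-like Them6 rose by 2.31 ± 0.23, the phosphatase-related membrane protein Plppr3 by 2.33 ± 0.33, and BC035044, a gene known by its clone name, by 2.72 ± 0.22.

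Tpsg1, a tryptase of mast cells, had the highest fold change, 6.96 ± 1.46 (adjusted p 0.0768), but its levels of 78.4 and 6.83 CPM in the deleted libraries differed widely, beside 0.539 and 0.137 CPM in the intact ones. Other tryptase genes did not share 1 direction. Tpsab1 stood lower in the deleted libraries, at 7.91 and 0.418 CPM against 288 and 53.7 CPM. Tpsb2 stood at 1026 and 57.3 CPM against 151 and 41.1 CPM and was not called. The 10 markers of mast cells, basophils and eosinophils summed to 11527 CPM in deleted 1 and 1468 in deleted 2, and to 6461 in intact 1 and 3244 in intact 2. The mast cell protease gene Cpa3, for example, stood at 7572 and 316 CPM against 3366 and 1365 CPM. By the main edgeR fit none of these 10 markers was called (1 had an unadjusted p under 0.05, and DESeq2 called 1), and their part in the Tpsg1 value was not tested. Ccl24, the eosinophil chemoattractant eotaxin-2, had 56.7 and 199 CPM against 19.4 and 8.27 CPM, and Tgfbi, an extracellular matrix protein induced by TGF-beta, had 342 and 590 CPM against 127 and 66.8 CPM. Ccl24 rose by 3.21 ± 0.73 (adjusted p 0.0863) and Tgfbi by 2.26 ± 0.43 (adjusted p 0.0665), both higher in deleted 2 than in deleted 1. Cavin1, a coat protein of caveolae, rose by 2.10 ± 0.51, the scaffold protein Tspoap1 by 2.16 ± 0.36 and the sugar phosphatase Pxylp1 by 2.10 ± 0.27.

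**Figure D2:**
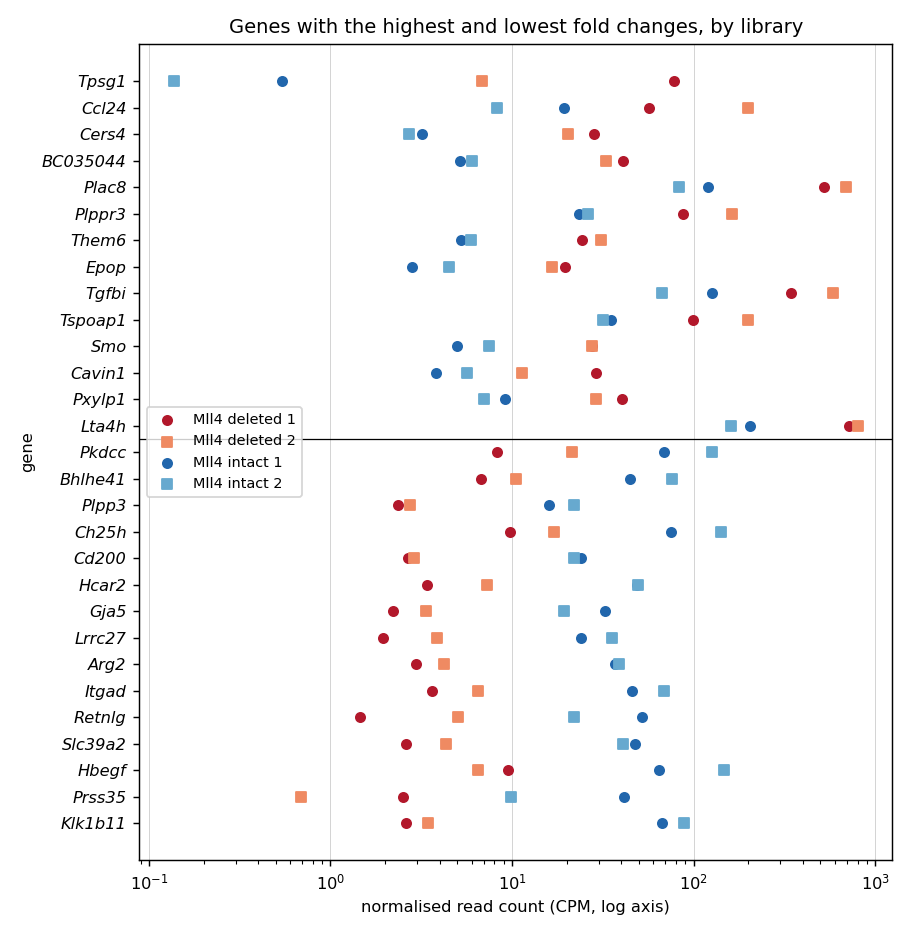
Normalised read counts (CPM, log axis) of the reported genes with the highest and the lowest fold changes, a symbol for each of the 4 libraries. Red and orange symbols (deleted) lie right of the blue ones (intact) for every gene of the upper panel and left of them in the lower panel, as the choice of genes requires.

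To describe functions, 42 lists of genes were used, and 1119 of their members were among the tested genes. The 19 lists of biosynthesis, mitochondria, protein synthesis and nuclear functions held 559 of them, of which 91 rose and 4 fell, with a median log2 fold change of 0.37. In the other 23 lists, of immune, transcription factor, signalling, metabolic and cytoskeletal genes, 9 of 560 rose and 49 fell, with a median of -0.22. The median over all genes tested was 0.01. The medians of the 19 lists stayed above 0 in all 16 other fits tried. Scaled by total counts alone, 12 of the other 23 lists had a median that turned from below to above 0, and the median over these 23 lists together was 0.01, beside 0.23 for all genes. In that fit the medians of 20 of the 23 still lay below that of all genes. In bulk RNA, fewer cells of a type and less RNA per cell cannot be told apart.

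**Figure D3:**
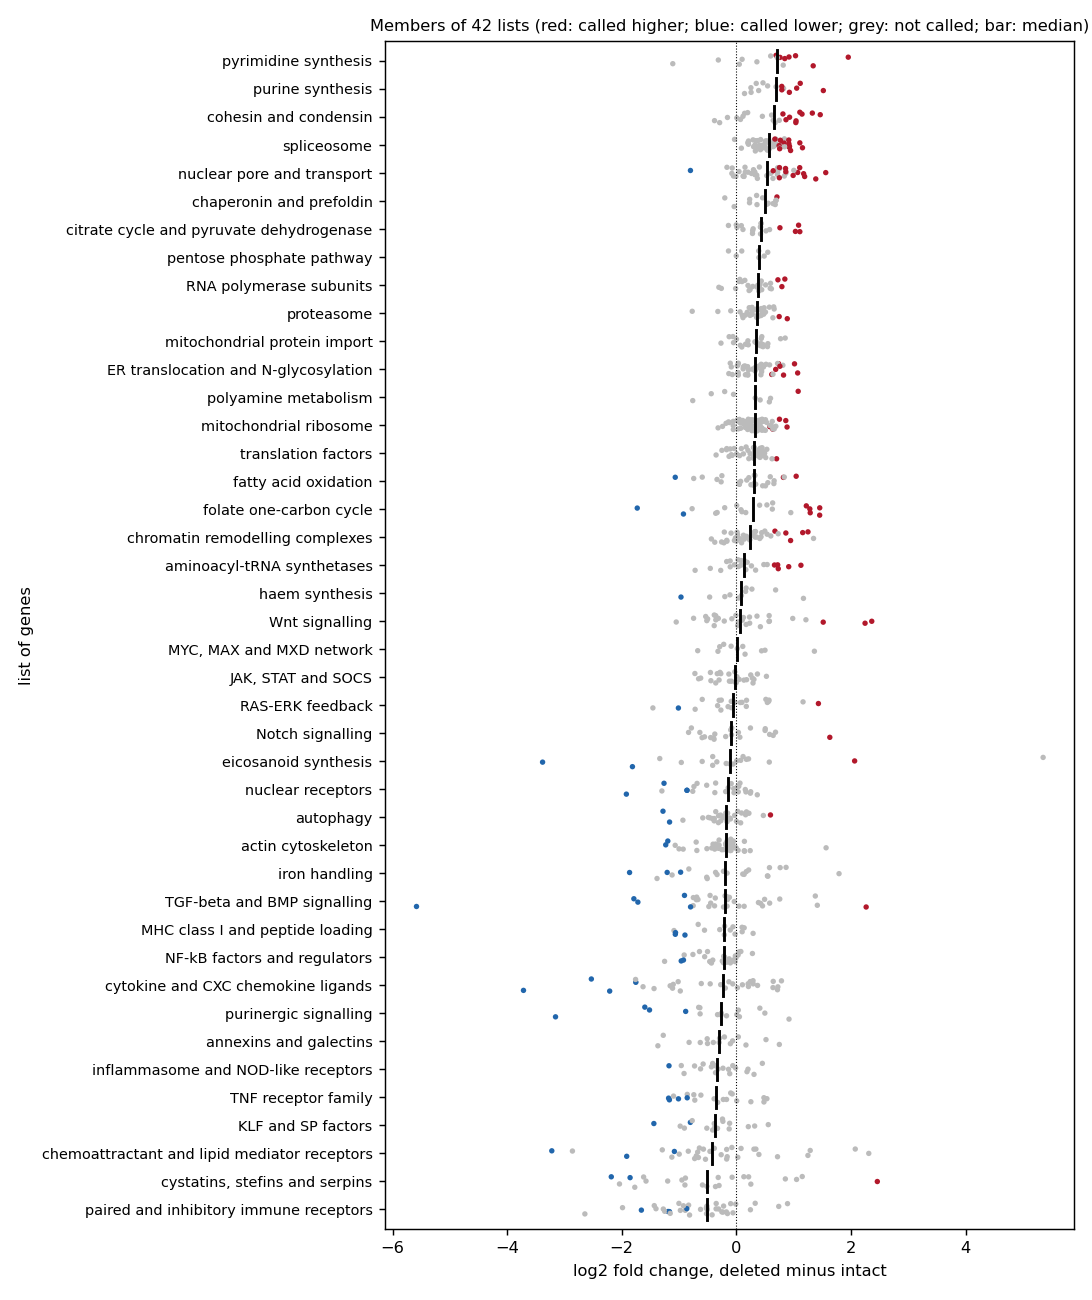
Log2 fold changes (deleted minus intact) of every tested member of the 42 lists, with called members in red (higher) or blue (lower), the others in grey and the list median as a bar. The medians run from 0.71 for pyrimidine synthesis at the top to -0.52 for paired and inhibitory immune receptors at the bottom.

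Genes of nucleotide synthesis were higher in the Mll4-deleted libraries along both branches of the pathway. Of 15 enzymes of purine synthesis, 6 rose (40%) and none fell, with a median log2 fold change of 0.69 and all 15 estimates above 0. Ppat, the enzyme of the committed step, had 51.5 and 47.1 CPM in the deleted libraries and 21.5 and 24.1 CPM in the intact ones, a rise of 1.11 ± 0.17 (adjusted p 0.0543). Pfas, a later step of the same branch, had 63.9 and 56.8 CPM against 29.1 CPM in both intact libraries, a rise of 1.05 ± 0.15 (adjusted p 0.0543). Impdh2, the rate-limiting enzyme of guanine nucleotide synthesis, had 150 and 196 CPM against 49.0 and 71.6 CPM. It rose by 1.52 ± 0.26 (adjusted p 0.0593), the most of the list. Gmps, which acts after it, rose by 0.79 ± 0.15, Prps1, which makes the ribose phosphate donor, by 0.79 ± 0.14, and the multi-step enzyme Gart by 0.92 ± 0.18. Paics missed the threshold with 168 and 194 CPM against 87.3 and 117 CPM (adjusted p 0.103). The salvage enzymes Hprt and Aprt had groups that overlapped, with estimates of 0.26 ± 0.29 and 0.25 ± 0.20.

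Pyrimidine synthesis gave a like count, with 7 of 15 members risen (46.7%), none fallen and a median of 0.71. Tk1, the thymidine kinase of dividing cells, had 62.9 and 85.4 CPM against 18.8 and 19.6 CPM, a rise of 1.95 ± 0.20 (adjusted p 0.0514). Cad, which carries out the opening steps of the pathway, had 97.8 and 114 CPM against 37.4 and 46.2 CPM, a rise of 1.34 ± 0.18 (adjusted p 0.0543). Umps, which ends the de novo branch, had 72.8 and 87.5 CPM against 46.8 and 42.6 CPM, a rise of 0.84 ± 0.17. For all 3 the groups were well apart. Dtymk, the thymidylate kinase, rose by 1.03 ± 0.16, the CTP synthase Ctps by 0.92 ± 0.21, the dUTP-degrading enzyme Dut by 0.69 ± 0.14 and the nucleotide-cleaning Dctpp1 by 0.76 ± 0.18. Tyms, the thymidylate synthase, had 93.1 and 81.9 CPM against 66.1 and 70.4 CPM and was not called (0.36 ± 0.15, adjusted p 0.226). Upp1, which breaks uridine down, ran the other way, with 92.5 and 34.5 CPM against 159 and 116 CPM, and was not called either (adjusted p 0.232).

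The folate cycle, which carries the carbon units for purines and thymidylate, changed in both directions. Of 20 tested members 5 rose and 2 fell (35% called), with a median of 0.28. Shmt1, the cytosolic enzyme that takes the carbon from serine, had 41.5 and 48.0 CPM against 15.96 and 16.7 CPM, a rise of 1.45 ± 0.18 (adjusted p 0.0528). Mthfd1 rose by 1.22 ± 0.17, its mitochondrial relative Mthfd1l by 1.29 ± 0.20 and Ahcy, which clears S-adenosylhomocysteine, by 1.28 ± 0.20. The members that fell act at other points of the network. Mat2a, which makes the methyl donor S-adenosylmethionine, had 234 and 169 CPM against 383 and 382 CPM, a change of -0.92 ± 0.23 (adjusted p 0.0957). Aldh1l2, a mitochondrial enzyme that oxidises formyl folate, had 1.18 and 1.64 CPM against 4.33 and 4.99 CPM, a change of -1.73 ± 0.35. The mitochondrial pair differed in their estimates, with Shmt2 at 124 and 191 CPM against 70.0 and 93.3 CPM, and Mthfd2 at 80.4 and 112 CPM against 123 and 124 CPM, neither called.

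**Figure D4:**
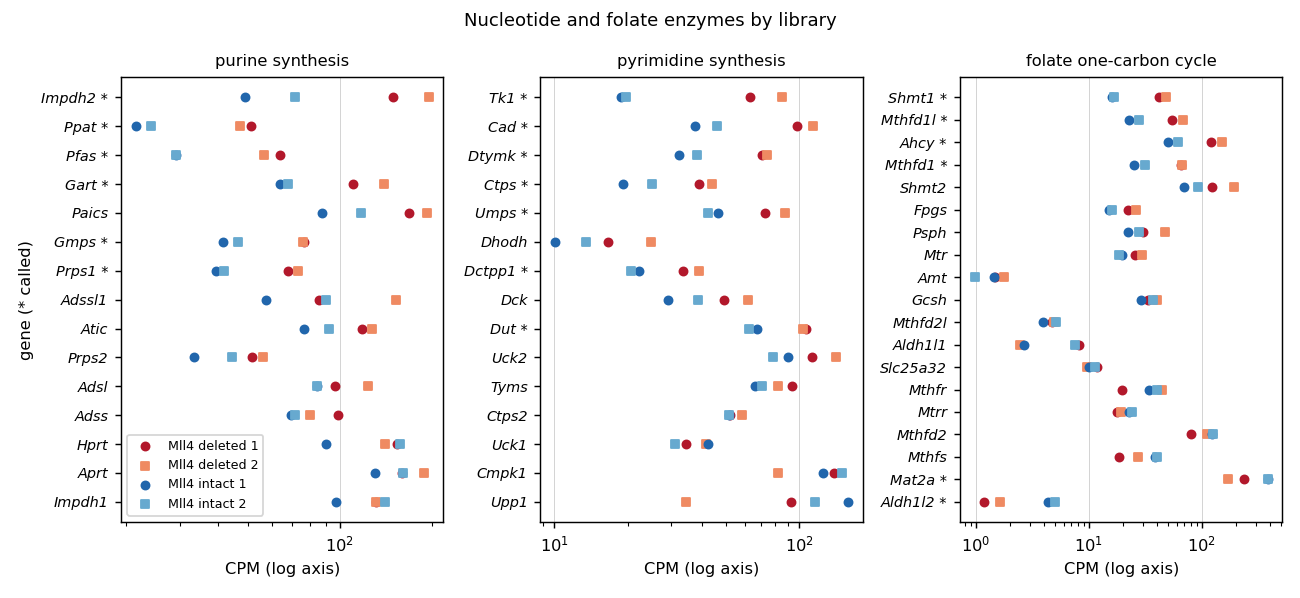
CPM (log axis) of the reported genes of purine synthesis, pyrimidine synthesis and the folate cycle in the 4 libraries, with called genes marked by an asterisk. In the upper rows of each panel both deleted libraries lie right of both intact ones, and in the folate panel Mat2a and Aldh1l2 lie the other way round.

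In polyamine metabolism 1 of 9 tested genes rose (11.1%, beside 5.67% of all genes tested), with a median of 0.33. It was the spermidine synthase Srm, with 154 and 139 CPM against 57.4 and 81.6 CPM (1.08 ± 0.22, adjusted p 0.0735). The rate-limiting Odc1 stood at 200 and 179 CPM against 144 and 140 CPM and was not called. None of 7 genes of the pentose phosphate pathway was called by the main edgeR fit or DESeq2, with a median of 0.39. Total-count scaling called 2 higher, as did the edgeR fit with all 7 MLL-AF9 libraries. In the main fit 1 gene had an unadjusted p under 0.05. Tkt, the transketolase, had the largest estimate of the list there, 0.55 ± 0.26 (adjusted p 0.272).

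Genes of the nucleus gave the largest count of rises, 45 of 188 tested, with a median of 0.44. The smaller biosynthesis lists above gave 19 of 66 with a median of 0.47, and 5.67% of all genes tested rose. Of 58 spliceosome genes 16 rose (27.6%) and none fell, with a median of 0.56, and 57 of the 58 estimates were above 0. Snrpd1, a protein of the ring at the core of the splicing particles, had 93.8 and 87.3 CPM against 36.7 and 44.8 CPM, a rise of 1.15 ± 0.17 (adjusted p 0.0543). Snrpa1, of the U2 particle, had 67.1 and 68.0 CPM against 30.4 and 32.2 CPM, a rise of 1.11 ± 0.14 (adjusted p 0.0534). The other rises included more core proteins (Snrpd2, Snrpd3, Snrpg), 5 Lsm proteins (Lsm3 to Lsm7) and the U5 GTPase Eftud2, between 0.67 and 0.95 on the log2 scale. Of 43 nuclear pore and transport genes 12 rose and 1 fell (30.2% called), with a median of 0.53. Nup85, a scaffold protein of the pore, had 88.1 and 98.7 CPM against 28.3 and 35.1 CPM, a rise of 1.56 ± 0.18 (adjusted p 0.0514). The scaffold proteins Nup107, Nup133 and Nup155 rose by 1.19 ± 0.22, 1.11 ± 0.23 and 1.17 ± 0.21. Of the genes that control Ran, the GTPase that gives transport its direction, some were called. Rcc1, which loads Ran with GTP, had 90.9 and 88.3 CPM against 30.1 and 38.5 CPM (1.39 ± 0.18, adjusted p 0.0534), Ran itself rose by 0.75 ± 0.19, Rangap1 by 0.86 ± 0.19 and Ranbp1 by 0.75 ± 0.17. Ranbp2 (0.20 ± 0.19, adjusted p 0.554) and the Ran importer Nutf2 (adjusted p 0.175) were not called. Among importins, Kpna2 rose by 1.07 ± 0.21 whereas Kpna4 fell, from 139 and 144 CPM in the intact libraries to 91.1 and 71.6 CPM (-0.80 ± 0.18, adjusted p 0.0858).

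Of 22 genes for cohesin and condensin, the ring complexes that hold and fold chromosomes, 9 rose (40.9%) and none fell, with a median of 0.66. Ncapd2, a condensin I subunit, had 153 and 208 CPM against 70.5 and 60.4 CPM, a rise of 1.46 ± 0.22 (adjusted p 0.0543). Ncapg of the same complex had 44.1 and 43.1 CPM against 16.1 and 18.8 CPM, a rise of 1.32 ± 0.18. Smc3, a cohesin subunit, had 92.5 and 96.4 CPM against 47.2 and 44.9 CPM, a rise of 1.04 ± 0.14. Condensin II was among the rises with Ncapg2 (0.81 ± 0.15) and Ncaph2 (0.87 ± 0.19), and so were sororin, Cdca5 (1.04 ± 0.21), and the cohesin acetyltransferase Esco2 (0.93 ± 0.19). Of 39 chromatin remodelling genes 5 rose (12.8%, beside 5.67% of all genes tested). Ruvbl1 and Ruvbl2, paired ATPases of several complexes, stood at 65.8 and 70.4 against 27.4 and 33.6 CPM and at 109 and 138 against 46.5 and 57.4 CPM. They rose by 1.16 ± 0.17 and 1.25 ± 0.20, and the SWI/SNF subunits Smarcc1 and Actl6a by 0.86 ± 0.14 and 0.95 ± 0.16. Of 26 RNA polymerase subunits 3 rose (11.5%, beside the same 5.67%). Among them Polr2b, the second-largest subunit of polymerase II, rose by 0.85 ± 0.15 and Polr2d by 0.72 ± 0.17.

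Promoters of called and other genes were read for known motifs. The E2F site and the CCAAT box are given here and the other motifs further below. E2F factors are known to drive genes in dividing cells, and the part of any factor in these rises was not tested. RefSeq windows of 300 bases, from 250 before to 50 after a start (GRCm38.p6), were at hand for 632 of the 802 higher and 444 of the 575 lower genes. An E2F site, searched as TTTGGCGC, TTTCCCGC, TTTGGCGG or TTTCCCGG on both strands, was in 10.3% of 740 windows of higher genes, 4.01% of 599 windows of lower genes, 5.29% of 12776 windows of genes not called and 3.32% of all 32851 windows. The CCAAT box, searched as CCAAT, was in 45.3%, 34.2%, 37.6% and 37.4% in the same order. The windows of Ppat (chr5:76951529-76951828), Ncapd2 (chr6:125191537-125191836) and Ranbp1 (chr16:18248645-18248944) are printed 5′ to 3′ on the gene's strand, the minus strand for all 3, as examples of a nucleotide, a chromosome and a transport gene that rose and hold an E2F match, which capitals mark. A match is a run of letters and not a measured site.
Ppat: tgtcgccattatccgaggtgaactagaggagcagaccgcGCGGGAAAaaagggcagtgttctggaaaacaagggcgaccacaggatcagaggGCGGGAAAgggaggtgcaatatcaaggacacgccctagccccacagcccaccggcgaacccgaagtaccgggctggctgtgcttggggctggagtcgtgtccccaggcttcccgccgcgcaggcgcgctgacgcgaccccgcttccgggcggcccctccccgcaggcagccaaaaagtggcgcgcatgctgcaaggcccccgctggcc
Ncapd2: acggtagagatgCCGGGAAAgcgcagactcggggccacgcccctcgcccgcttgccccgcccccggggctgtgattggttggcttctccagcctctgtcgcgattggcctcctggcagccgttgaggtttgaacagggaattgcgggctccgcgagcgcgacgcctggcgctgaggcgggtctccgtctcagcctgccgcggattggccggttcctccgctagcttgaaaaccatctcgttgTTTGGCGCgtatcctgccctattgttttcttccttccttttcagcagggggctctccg
Ranbp1: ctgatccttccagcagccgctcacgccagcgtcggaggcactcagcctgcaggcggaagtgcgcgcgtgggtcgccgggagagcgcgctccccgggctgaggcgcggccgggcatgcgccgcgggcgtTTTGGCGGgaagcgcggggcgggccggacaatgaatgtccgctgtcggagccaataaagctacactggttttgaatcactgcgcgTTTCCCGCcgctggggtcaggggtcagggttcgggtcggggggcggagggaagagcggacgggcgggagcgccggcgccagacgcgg

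Genes of mitochondria and of protein synthesis had raised medians with fewer calls. Of 19 genes of the citrate cycle and pyruvate dehydrogenase 4 rose (21.1%) and none fell, with a median of 0.42. Fh1, the fumarase, had 93.3 and 118 CPM against 41.9 and 56.0 CPM (1.11 ± 0.22, adjusted p 0.0702). Idh2, the mitochondrial isocitrate dehydrogenase, had 174 and 227 CPM against 80.2 and 109 CPM (1.08 ± 0.24, adjusted p 0.0800). Idh3a rose by 1.03 ± 0.26 and Suclg2 by 0.76 ± 0.15. In fatty acid oxidation 2 of 27 genes rose, the dehydrogenases Hadh (1.04 ± 0.20) and Acadvl (0.82 ± 0.15), and 1 fell, the peroxisomal oxidase Acox3, with 40.2 and 60.4 CPM against 99.7 and 111 CPM (-1.07 ± 0.23). That was 11.1% called, beside 9.74% of all genes tested. Of 77 mitochondrial ribosome genes 5 rose (6.49%), near the 5.67% of all genes that rose, although 69 estimates were above 0. Those 5 were Mrpl18, Mrpl34, Mrpl12, Mrpl49 and Mrpl9, between 0.58 and 0.88. None of 27 mitochondrial import genes was called by the main edgeR fit, with a median of 0.34 and 9 genes at an unadjusted p under 0.05. DESeq2 called 2 higher, total-count scaling 13 and the edgeR fit with all 7 MLL-AF9 libraries 9. In the main fit Tomm40, the import channel, came nearest with 84.8 and 91.1 CPM against 39.7 and 57.8 CPM (adjusted p 0.103).

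Among genes that make and fold proteins, 5 of 23 for aminoacyl-tRNA synthetases and their scaffold rose (21.7%). Vars, which charges the valine tRNA, had 160 and 199 CPM against 74.8 and 89.8 CPM (1.13 ± 0.20, adjusted p 0.0610). Aimp2, Kars, Qars and Farsa rose by 0.66 to 0.91. In the endoplasmic reticulum 7 of 44 genes for entry and glycosylation rose (15.9%). Calr, a lectin chaperone, had 2184 and 2113 CPM against 924 and 1125 CPM (1.07 ± 0.22, adjusted p 0.0755), and Pdia6, a disulfide isomerase, had 539 and 583 CPM against 247 and 309 CPM (1.01 ± 0.21). Mogs, Ssr1, Ssr2, Ddost and Sec61b rose by 0.62 to 0.82. Of 40 translation factors only Eef1d was called, of 14 chaperonin and prefoldin genes only Tcp1 (0.71 ± 0.18, adjusted p 0.0998), and of 34 proteasome genes Psma5 (0.89 ± 0.19) and Psmc1 (0.75 ± 0.16). All of these calls were rises, 2.5%, 7.14% and 5.88% of the 3 lists beside 5.67% of all genes tested. These counts depend on the fit, since total-count scaling called 15, 9 and 19 of their genes higher and DESeq2 3, 6 and 6.

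The genes that fell most encode secreted, surface and metabolic proteins. The 15 lowest fold changes among called genes, chosen by the same rule, ran from -4.69 to -2.73. Klk1b11, a kallikrein protease, had 2.61 and 3.43 CPM in the deleted libraries and 66.7 and 88.3 CPM in the intact ones, a change of -4.69 ± 0.26 (adjusted p 0.0508). Mouse kallikrein genes are near-identical copies, and which of them the reads came from is uncertain. Arg2, the mitochondrial arginase, had 2.95 and 4.24 CPM against 37.0 and 38.7 CPM, a change of -3.40 ± 0.26 (adjusted p 0.0508). Slc39a2, a zinc importer, had 2.61 and 4.36 CPM against 47.4 and 40.9 CPM, a change of -3.68 ± 0.32 (adjusted p 0.0508). Cd200, the ligand of an inhibitory receptor of myeloid cells, had 2.67 and 2.90 CPM against 23.9 and 21.9 CPM, a change of -3.04 ± 0.22 (adjusted p 0.0508). The libraries of each pair were close for these last 3 genes. Ch25h, which makes 25-hydroxycholesterol, had 9.74 and 17.1 CPM against 74.8 and 142 CPM, a change of -3.02 ± 0.43 (adjusted p 0.0543). Itgad, the integrin chain alpha D, fell by 3.51 on the log2 scale, the circadian repressor Bhlhe41 by 2.80, the connexin Gja5 by 3.23, the lipid phosphatase Plpp3 by 2.90, the secreted kinase Pkdcc by 2.73 and Lrrc27 by 3.38. Retnlg, a resistin-like protein of granulocytes, had 1.46 and 5.07 CPM against 51.9 and 22.1 CPM, and Prss35, a serine protease-like protein, 2.52 and 0.686 CPM against 41.2 and 9.93 CPM. Both fell with wide spread within the pairs (-3.53 ± 0.74 and -3.95 ± 0.93).

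Genes of iron storage, which took a large share of the counts, were lower in the Mll4-deleted libraries. Fth1, the ferritin heavy chain, had 3022 and 5811 CPM in the deleted libraries and 12740 and 19419 CPM in the intact ones, a change of -1.86 ± 0.43 (adjusted p 0.0865). Ftl1, the light chain, had 7814 and 10040 CPM against 18439 and 22804 CPM, a change of -1.21 ± 0.28 (adjusted p 0.0885). Every intact library lay above every deleted one, but intact 2 was the highest for both genes. Ferritin genes have many processed copies in the genome, so their counts are uncertain. Steap3, which reduces iron in endosomes, fell from 48.5 and 57.0 CPM to 22.4 and 31.4 CPM (-0.97 ± 0.22, adjusted p 0.0865). Of 22 tested iron genes 3 fell (13.6%) and none rose, with a median of -0.19 (0.03 by total-count scaling). The summed level of the list was 11914 and 16960 CPM in the deleted libraries and 32233 and 43488 CPM in the intact ones. In haem synthesis 1 of 11 fell (9.09%, beside 4.07% of all genes tested), the haem exporter Flvcr1 (-0.97 ± 0.22).

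Of 32 cytokine and CXC chemokine genes, the ligands of the immune lists, 4 fell (12.5%) and none rose. Of all genes tested 4.07% fell. The list median was -0.23 but 0.0001 by total-count scaling, and 13 of the 32 estimates were above 0. Over the same libraries the 8 macrophage markers summed to 1456 and 2619 CPM (deleted) and to 2815 and 3834 CPM (intact), which goes for every immune group that follows. Hbegf, a growth factor of the EGF family, had 9.45 and 6.54 CPM against 64.3 and 147 CPM, a change of -3.71 ± 0.47 (adjusted p 0.0528). Csf1, the macrophage growth factor, had 153 and 118 CPM against 500 and 418 CPM, a change of -1.75 ± 0.23 (adjusted p 0.0534). Il1a, an alarm cytokine, had 8.39 and 6.42 CPM against 26.5 and 42.2 CPM, a change of -2.21 ± 0.31 (adjusted p 0.0543). Its antagonist Il1rn fell too, from 486 and 1279 CPM to 139 and 167 CPM (-2.53 ± 0.49). Tnf and Cxcl1 missed the threshold, with 22.1 and 22.8 against 34.2 and 66.0 CPM and with 1.87 and 3.88 against 7.85 and 11.5 CPM (adjusted p 0.122 and 0.101).

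Some surface receptors fell, and most members of the 4 receptor lists were not called. The share of all tested genes that fell was 4.07%. Of 32 receptors for chemoattractants and lipid mediators 3 fell (9.38%): Ptgir, the prostacyclin receptor, from 226 and 205 CPM to 49.9 and 64.5 CPM (-1.91 ± 0.20, adjusted p 0.0514), Hcar2, the niacin receptor, from 48.6 and 49.7 CPM to 3.38 and 7.25 CPM (-3.22 ± 0.40), and the chemerin-binding Ccrl2 (-1.08 ± 0.27). Ccr2, the receptor that brings monocytes out of marrow, ran the other way, with 811 and 455 CPM against 229 and 289 CPM, and missed the threshold (adjusted p 0.105). Of 17 genes of purinergic signalling 4 fell (23.5%), all of them receptors for extracellular nucleotides. P2rx4 had 56.8 and 62.8 CPM against 189 and 174 CPM, a change of -1.60 ± 0.16 (adjusted p 0.0514). P2rx7, known for starting inflammasome activation, had 7.24 and 11.6 CPM against 21.9 and 31.9 CPM, a change of -1.52 ± 0.33, P2rx3 changed by -3.16 ± 0.54 and P2ry2 by -0.89 ± 0.22. The median of this list was -0.27 but 0.03 without deleted 2. In the TNF receptor family 4 of 20 fell (20%): the death receptor Fas, from 39.4 and 35.0 CPM to 13.6 and 19.6 CPM (-1.17 ± 0.24), Tnfrsf12a (-1.18 ± 0.30), and the neighbouring, closely related Tnfrsf23 and Tnfrsf26 (-1.01 ± 0.22 and -0.86 ± 0.17). Of 39 paired and inhibitory receptors 4 fell (10.3%), and 35 of the 39 estimates were below 0. Cd33, an inhibitory sialic acid receptor, had 92.7 and 105 CPM against 213 and 238 CPM (-1.19 ± 0.17, adjusted p 0.0543), and Tyrobp, the adaptor of many activating receptors, had 455 and 447 CPM against 735 and 908 CPM (-0.87 ± 0.21). Cd300lf changed by -1.17 ± 0.20 and Pira2 by -1.66 ± 0.17, the latter from a family of near-identical copies.

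The MHC class I genes that fell encode the surface molecules that show peptides to T cells. H2-D1 had 923 and 1078 CPM against 2063 and 2128 CPM (-1.07 ± 0.22, adjusted p 0.0731), H2-K1 had 766 and 926 CPM against 1552 and 1600 CPM (-0.90 ± 0.22, adjusted p 0.0947) and H2-Q4 had 149 and 184 CPM against 344 and 351 CPM (-1.06 ± 0.20, adjusted p 0.0654). These copies share reads, and how such reads were counted is not given, so the 3 values may not be separate. B2m, the light chain, missed the threshold with 728 and 1012 CPM against 1559 and 2142 CPM (adjusted p 0.107). Tap1 and Tap2, the peptide transporter, had estimates of -0.21 ± 0.23 and -0.11 ± 0.16, and the immunoproteasome subunit Psmb8 0.10 ± 0.24. Of the 16 tested genes 3 fell (18.8%, beside 4.07% of all genes tested), with a median of -0.21 (0.01 by total-count scaling). The difference between the surface molecules and the other members was not tested.

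Inside the cell, 2 of 30 NF-kB factors and regulators fell (6.67%, beside 4.07% of all genes tested): the inhibitor Tnfaip3, from 66.97 and 74.8 CPM to 33.1 and 39.7 CPM (-0.96 ± 0.17, adjusted p 0.0605), and the kinase Ripk2, from 35.0 and 32.4 CPM to 15.7 and 19.8 CPM (-0.92 ± 0.20). None of 27 JAK, STAT and SOCS genes was called by the main edgeR fit, with a median of -0.03 (0.21 by total-count scaling). DESeq2 called 3 lower and the edgeR fit with all 7 MLL-AF9 libraries 5 lower. In the main fit 5 genes had an unadjusted p under 0.05. The smallest adjusted p there was 0.121, for Jak1, at 178 and 194 CPM against 295 and 278 CPM. Of 20 inflammasome genes only Nlrp1b fell (5%, -1.18 ± 0.25). Of 16 annexins and galectins none was called by the main edgeR fit, where 6 had an unadjusted p under 0.05. DESeq2 called 5 lower, and the edgeR fit with all 7 MLL-AF9 libraries called 6 lower and 1 higher. The galectin Lgals3 stood at 1713 and 2657 CPM against 4010 and 6571 CPM (adjusted p 0.123). Of 19 eicosanoid enzymes 2 fell and 1 rose (15.8% called, beside 9.74% of all genes tested). Pla2g7, which degrades platelet-activating factor, had 103 and 174 CPM against 562 and 411 CPM (-1.81 ± 0.33, adjusted p 0.0629), and the lipoxygenase Alox12 fell from 9.75 and 4.74 CPM to 0.802 and 0.567 CPM (-3.38 ± 0.50), while Lta4h rose as given above. Hpgd, which inactivates prostaglandins, had the largest estimate of the list, 5.35 ± 1.46, with 29.6 and 2.51 CPM against 0.108 and 0.683 CPM (adjusted p 0.113). Of 23 cystatins, stefins and serpins, which inhibit proteases, 2 fell and 1 rose (13% called). Serpinb10 fell from 148 and 132 CPM to 34.9 and 26.7 CPM (-2.18 ± 0.20, adjusted p 0.0508) and Serpinb2 from 359 and 327 CPM to 57.4 and 132 CPM (-1.85 ± 0.42). Serpinf1, a secreted inhibitor of vessel growth, rose from 1.23 and 1.02 CPM to 3.87 and 8.59 CPM (2.46 ± 0.49).

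An AP-1 site, searched as TGAGTCA on both strands and holding neither of the motifs above, was in 6.68% of promoter windows of lower genes, 2.30% of those of higher genes, 3.99% of those of genes not called and 5.20% of all. The windows of the cytokine Il1a (chr2:129309923-129310222, minus strand) and of Zyx (chr6:42349578-42349877, plus strand), the focal adhesion protein zyxin, hold a match and are shown as examples among the genes that fell, 5′ to 3′ on the gene's strand with the match in capitals. Zyx had 110 and 100 CPM against 285 and 198 CPM, a change of -1.20 ± 0.23 (adjusted p 0.0696).
Il1a: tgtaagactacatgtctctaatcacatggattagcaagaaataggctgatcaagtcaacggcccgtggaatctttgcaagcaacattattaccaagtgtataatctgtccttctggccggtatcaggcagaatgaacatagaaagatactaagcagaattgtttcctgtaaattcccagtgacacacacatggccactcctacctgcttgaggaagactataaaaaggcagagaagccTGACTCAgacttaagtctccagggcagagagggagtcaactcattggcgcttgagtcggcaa
Zyx: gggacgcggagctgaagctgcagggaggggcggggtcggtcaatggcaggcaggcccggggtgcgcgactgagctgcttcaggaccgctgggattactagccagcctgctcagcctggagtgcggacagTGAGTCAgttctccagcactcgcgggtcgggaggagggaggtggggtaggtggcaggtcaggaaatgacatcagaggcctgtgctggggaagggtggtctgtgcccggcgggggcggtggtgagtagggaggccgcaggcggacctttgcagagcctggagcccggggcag

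Of transcription factors in the lists, 6 of 53 fell (11.3%, beside 4.07% of all genes tested) and none rose, 2 of 17 KLF and SP factors and 4 of 25 nuclear receptors. Klf4, which promotes monocyte differentiation, had 29.9 and 40.1 CPM against 88.5 and 101 CPM, a change of -1.44 ± 0.20 (adjusted p 0.0543). Klf6, a relative of it, had 245 and 226 CPM against 395 and 426 CPM, a change of -0.80 ± 0.18. Rxra, the partner of many nuclear receptors, had 28.2 and 32.2 CPM against 69.5 and 75.5 CPM, a change of -1.26 ± 0.16 (adjusted p 0.0528). Its retinoic acid partner Rarg fell as well (-0.86 ± 0.18), as did the thyroid hormone receptor Thrb (-1.92 ± 0.35) and the clock repressor Nr1d2 (-0.86 ± 0.21). None of 11 genes of the MYC, MAX and MXD network was called by the main edgeR fit, where 1 had an unadjusted p under 0.05 and DESeq2 called 1 higher. Its largest estimate was that of Mxd3, 1.36 ± 0.42, with 6.42 and 9.31 CPM against 3.99 and 2.12 CPM, and that of Mxd1 was -0.68 ± 0.35.

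In TGF-beta and BMP signalling 5 of 33 genes fell and 1, Tgfbi, rose (18.2% called, beside 9.74% of all genes tested). Id2, an inhibitor of basic helix-loop-helix factors, had 202 and 210 CPM against 560 and 866 CPM, a change of -1.79 ± 0.27 (adjusted p 0.0543). Inhba, the activin A chain, had 18.6 and 23.3 CPM against 53.3 and 84.5 CPM, a change of -1.72 ± 0.28. Ltbp1, which stores latent TGF-beta in the matrix, had 0.0583 and 0 CPM against 2.07 and 1.69 CPM and was called lower (adjusted p 0.0543). Its relative Ltbp3 fell by 0.91 on the log2 scale, and the ubiquitin ligase Smurf1 by 0.80. In Notch signalling 1 of 22 rose (4.55%, beside 5.67% of all genes tested), the feedback inhibitor Nrarp, from 1.14 and 1.39 CPM to 4.14 and 3.70 CPM (1.63 ± 0.34). In Wnt signalling 3 of 30 rose (10%), all at low level: the factor Tcf7, from 0.237 and 0.205 CPM to 1.39 and 0.895 CPM (2.36 ± 0.50), and the receptors Fzd3 (1.51 ± 0.36) and Fzd9 (2.25 ± 0.54). Of 22 genes of RAS-ERK feedback the factor Etv4 rose (1.43 ± 0.35) and the phosphatase Dusp16 fell (-1.01 ± 0.25), 9.09% called.

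Among 34 autophagy genes 2 fell, Map1lc3a, a coat protein of the autophagosome, from 22.98 and 24.9 CPM to 9.60 and 10.1 CPM (-1.28 ± 0.19, adjusted p 0.0543), and the cargo receptor Optn (-1.17 ± 0.21), while Atg12 rose (0.59 ± 0.14). That was 8.82% called, beside 9.74% of all genes tested. The cargo receptor Sqstm1 missed the threshold with 281 and 200 CPM against 481 and 438 CPM (adjusted p 0.101). Of 42 actin cytoskeleton genes 2 fell (4.76%), near the 4.07% of all genes tested that fell. They were Zyx and Tmsb10, a protein that binds free actin, with 220 and 371 CPM against 692 and 699 CPM (-1.23 ± 0.30).

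The labels give whole bone marrow cells transformed with MLL-AF9 and sorted, without a cell type, and marker genes were set beside them. The 5 pan-haematopoietic markers summed to 3740 and 2715 CPM in the deleted and to 4287 and 4478 CPM in the intact libraries. B cell markers were near absent, with a sum of at most 8.48 CPM and Pax5 and Ebf1 at 0 in all 4 libraries, and so were T and NK cell markers, at most 8.65 CPM with Cd3e at 0. The 9 myeloid progenitor markers summed to 3367 and 2812 CPM against 4438 and 4148 CPM, although their median fold change was 0.59, since Csf2rb, a cytokine receptor chain, made up most of each sum. Csf2rb stood at 2574 and 1859 CPM against 3714 and 3387 CPM (adjusted p 0.193). Csf3r, Csf2ra and Irf8 had estimates of -0.87, -0.77 and -0.62, and Cebpa and Cd34 of 0.59 and 1.14, none of them called. Gfi1, a repressor that favours granulocytes, rose from 143 and 107 CPM to 234 and 339 CPM (1.20 on the log2 scale, adjusted p 0.0853), and Flt3 stayed under 1 CPM. Kit, the stem cell factor receptor, stood at 71.9 and 41.5 CPM against 30.0 and 28.5 CPM and was not called (adjusted p 0.130).

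Markers of mature cells were called in some lists and not in others, and not all in the same direction. Of all genes tested 5.67% rose and 4.07% fell. Of the 8 markers of mature monocytes and macrophages, whose sums stand with the cytokines above, none was called by the main edgeR fit. Of these 1 had an unadjusted p under 0.05 in that fit, and DESeq2 called 1. Cd68 had the largest estimate of them (-1.54), with 193 and 431 CPM against 700 and 1118 CPM (adjusted p 0.130). Adgre1 and Mrc1 were also lower in both deleted libraries. Cd14, Marco, Msr1, Csf1r and Fcgr1 overlapped between the groups, with estimates from -0.84 to 0.05. Dendritic cell markers summed to 160 and 185 CPM against 484 and 689 CPM, and the integrin Itgax, the 1 of 8 tested that fell, gave 39.3 and 71.7 CPM of this against 377 and 562 CPM, while Zbtb46, Flt3, Siglech and Cd209a were under 1 CPM in all 4 libraries. The 9 megakaryocyte markers summed to 390 and 567 CPM against 799 and 630 CPM, and 5 of them fell. Among these were Vwf, from 173 and 201 CPM to 52.2 and 57.6 CPM, and the low-level Gp1bb, from 4.38 and 1.69 CPM to 0.365 and 0.269 CPM. Pf4, at 64.1 and 353 CPM against 219.9 and 204.5 CPM (adjusted p 0.990), and Ppbp overlapped between the groups. Neither they nor Itga2b and Gp1ba were called. Erythroid markers summed to 26.1 and 4.57 CPM against 33.1 and 14.6 CPM, with 3 of 6 tested fallen and Hba-a1 at 0. The 7 neutrophil markers summed to 9785 and 12340 CPM against 12165 and 6169 CPM and overlapped between the groups. Of them Camp, an antimicrobial peptide, rose from 207 and 158 CPM to 616 and 704 CPM (1.86 on the log2 scale, adjusted p 0.0528). The others were not called by the main edgeR fit and did not share 1 direction. Mmp8 stood lower in both deleted libraries, at 262 and 686 CPM against 964 and 1272 CPM (-1.24). Ltf and Cxcr2 had estimates of -0.50 and -0.17, and S100a8, S100a9 and Ngp of 0.9989, 0.16 and 0.015. DESeq2 called 3 of the 7, in directions not given here. Markers of stroma and endothelium summed to 346 and 204 CPM against 297 and 262 CPM. Pecam1 alone gave 323 and 173 CPM of this against 241 and 215 CPM, and was not called. Of 5 tested 2 fell, Acta2, from 39.0 and 36.3 CPM to 19.1 and 22.6 CPM, and Col1a1. Col1a1 rests on 10 and 5 against 31 and 38 counts. Like Col1a2, Col3a1 and Cdh5 it was under 1 CPM in all 4 libraries, and Cxcl12 was at 0. The part of these other cell types in the immune, iron and transcription factor results was not tested.

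**Figure D5:**
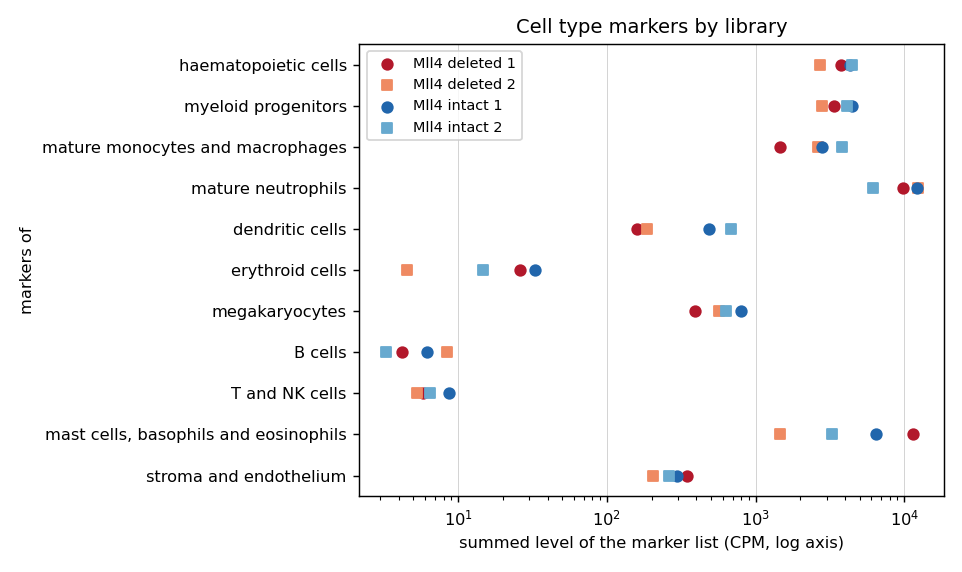
Summed level of each marker list (CPM, log axis) in the 4 libraries, a symbol for each library. The dendritic and macrophage sums are lower in both deleted libraries than in both intact ones, the neutrophil sums overlap, and the sums for mast cells, basophils and eosinophils are higher in library 1 than in library 2 of each group.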

How the data were processed

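The authors deposited raw read counts, a whole number for each NCBI gene number, with 1 file per library. The submitters' processing notes name the build mm9, TopHat2 2.0.11 and Bowtie 0.12.8. How reads were assigned to genes, with which annotation, strand setting or rule for shared reads, is not given in the sources used here. Near-identical, overlapping and antisense genes are therefore uncertain. Per the labels' protocols, libraries were made with a TruSeq kit from extracted RNA, 4 to a lane. Replicate numbers are those of the files, since the 2 files of a group belong to 1 labelled sample. Names, but no coordinates, came from RefSeq's GRCm38.p6 gene table, which matched 23185 of 23282 gene numbers. The 97 others stayed in totals and tests and took 0.0779% to 0.269% of the counts compared.

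The 4 libraries were fitted alone with edgeR 4.0.16 in R 4.3.3 (TMM scaling, quasi-likelihood test, two-sided, Benjamini-Hochberg over 14143 genes), with 2 residual degrees of freedom. The SE is the fold change over the square root of F. The threshold of 0.10, the comparison, the 42 lists and the 12 marker lists were chosen with earlier results of these data known, including that 0.05 calls no gene. Of 1161 list names 5 had no match. Named were Kmt2d, the 15 largest rises and 15 largest falls among called genes that averaged 10 CPM or more and whose groups did not overlap, for each list the 4 genes of smallest p and, where 5 or fewer members were called, all called members, leaving out 86 genes that earlier results had named. A few genes these rules take are not reported here. Other list and marker genes given with values were chosen after their values were seen. List counts and medians carry no test. Alternatives were scaling by RLE, upper quartiles or totals, 3 filters, robust estimation, DESeq2 1.42.0, fits with all 7 MLL-AF9 libraries or with 2 of them summed, blocks by file number and by sex, other thresholds and each library left out. Promoter windows and their coordinates are from RefSeq on GRCm38.p6, and motifs were searched on both strands. Counting error is small for well-counted genes at these depths, and the number of libraries limits their precision. It is larger for called genes with few counts. Examples are Ltbp1, with 4 and 0 counts in deleted 1 and 2 and 96 and 74 in intact 1 and 2, and Fzd9, with 39 and 24 against 7 and 5.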

Additional observations from a re-analysis of the deposited data

How the results depend on the processing

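The count of 1377 called genes stayed within 1.5 times under RLE (1265) and upper quartile scaling (1401), with edgeR's own filter (1383), no filter (1366), a minimum mean of 5 CPM (1328), robust estimation (1433) and the FOXO3 pair summed (1573). It moved to 2673 with total-count scaling (2148 higher and 525 lower), 2754 with DESeq2 (1398 and 1356), 4090 with all 7 MLL-AF9 libraries (2100 and 1990), 907 with a 2-fold minimum and 0 at an adjusted p of 0.05. At 0.05 other edgeR fits called 157 genes (robust estimation), 370 (mean of 5 CPM), 373 (FOXO3 pair summed), 491 (no filter), 968 (file number as a block), 1151 (total-count scaling) and 2336 (all 7 libraries), and 0 with RLE or upper quartile scaling, edgeR's own filter or the sex block. Without deleted 1 or deleted 2, 938 and 1101 were called at 0.05, and 0 without either intact library. With library sex as a block 0 genes were called by edgeR, where 2450 had an unadjusted p under 0.05 and the smallest adjusted p was 0.205. Leaving out 1 library gave 0 to 2147 calls. The count was 0 without intact 1 (1973 genes at an unadjusted p under 0.05) and without intact 2 (2113), 2058 without deleted 1 and 2147 without deleted 2. The cause was not tested, and the lone library of a pair is then assumed to vary like the other pair. With the file number as a replicate block 2414 genes were called. The numbers give only 2 pairs, whose differences correlated at 0.21 over genes, and nothing in the labels ties them to a shared culture.

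In the fits that left calls, between 81.1% and 99.9% of the 1377 genes were called again, and no gene named here had a fold change of the opposite sign that was called. Of the 198 genes chosen by the rule, 140 were called in the main fit and lost their call with the sex block and without either intact library. RLE scaling ended the call of 11 genes, total-count scaling of 10, the no-filter fit of 8, and leaving out deleted 1 or deleted 2 of 22 and 15. The list medians that changed sign in other fits than total-count scaling were those of purinergic signalling, JAK, STAT and SOCS, RAS-ERK feedback, haem synthesis and the MYC network.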

Other observations

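Some genes differed within a pair far more than between the groups. A ratio of at least 16 between the 2 libraries of a pair was seen for 71 genes in the deleted pair, 56 of them higher in deleted 1, and for 14 genes in the intact pair, with libraries under 3 counts set to 3. Beside the sex-linked genes, the aspartic protease Ctse stood at 425 and 2.75 CPM in deleted 1 and 2 and at 22.2 and 9.02 CPM in intact 1 and 2. Ifi202b, an interferon-inducible gene known to differ between mouse strains, stood at 13.7 CPM in deleted 1 and had no count in deleted 2 or intact 2. Npy, a neuropeptide, stood at 0.0729 and 9.70 CPM in deleted 1 and 2, and 40.0 and 65.3 CPM were measured in intact 1 and 2. Csn2, a casein, stood at 13.5 and 10.2 CPM in deleted 1 and 2, against 0 and 27.5 CPM in intact 1 and 2.

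Of the other motifs searched in the promoter windows, the KLF motif (GGGTGTGG or GGGCGTGG, both strands) was in 14.9% of the windows of higher, 10.5% of lower and 12.5% of not called genes and in 8.58% of all windows. The C/EBP motif, searched as TTGCNNAA, was in 6.49%, 11.2%, 9.15% and 10.8% in the same order, and the antioxidant response element (TGACNNNGC or TGANTCAGC, which can hold the AP-1 letters) in 13.9%, 17.4%, 15.1% and 13%. The shares in that order were close to each other for the NF-kB motif (6.35%, 6.51%, 6.21% and 5.56%) and, among the first 3, for the CRE (TGACGTCA: 3.11%, 2.84%, 2.94% and 1.79%). The E-box (CACGTG) was in 8.24%, 10%, 9.6% and 7.15%, and the ETS motif of PU.1 (GAGGAAGT) in 2.3%, 4.01%, 3.37% and 3.2%. The CHR (TTTGAA) was in 17.3%, 11.4%, 12.4% and 17.9%, and the NRF1 motif in 10.4%, 3.01%, 9.28% and 4.6%. With the E2F, CCAAT and AP-1 motifs these are all that were searched.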
